A study of Mus musculus with 4 samples.

Results

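The 48 genes described here are interferon-stimulated antiviral genes chosen by name: the IFIT, IFITM, Schlafen, TRIM, PHF11 and PARP families, the ISG15 conjugation system, viperin, enzymes that act on nucleic acids, and single members outside these families. They exclude the OAS enzymes and the interferon-inducible GTPases, apart from Ifi47. Array probes carrying a RefSeq accession of 46 of the 48 genes were found, among 22905 genes named in this way. Ifitm2 and Ifi203 had no matched probe, and their expression is not analysed here. Values are those of a gene's brightest probe.

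Type I interferons bind the receptor encoded by Ifnar1 and Ifnar2, and the Janus kinases attached to it activate the transcription factor complex ISGF3, which binds the interferon-stimulated response element in the promoters of target genes. Lipopolysaccharide (LPS), a component of the outer membrane of Gram-negative bacteria, reaches this pathway in macrophages when Toll-like receptor 4 signals through the adaptor TRIF to IRF3, which switches on the interferon-beta gene Ifnb1.

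RNA came from cells labelled peritoneal macrophages, recovered by peritoneal lavage from mice given 4% thioglycollate, an irritant that recruits leukocytes, for 3 days. The groups were wild-type cells without LPS (0 h), wild-type cells after 3 h of LPS, LysM-St18flox cells at 0 h and LysM-St18flox cells after 3 h of LPS, all kept in serum-containing medium. Each of the 4 groups had 1 Agilent array with 1 dye, so no difference given here has a replicate check and no p-value was computed. LysM drivers act in macrophages and neutrophils, so a floxed gene would stay intact in other cells of a lavage; the labels name no Cre line, LPS dose, age or sex, and do not say whether mice were pooled.

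Signals are given as normalized log2 values, the log2 processed signal minus the 75th percentile of that array, so that 0 is the level of the probe at that percentile. A difference of 1 is 2-fold. Where 2 pairs of signals follow a gene's name, the first is wild-type at 0 h and 3 h and the second LysM-St18flox at 0 h and 3 h, and 2 responses are in the same order. The spots of probes present 10 times per array scattered with a median SD of 0.03 to 0.04, or 0.05 for a difference between 2 arrays, which covers spot error and no variation between cultures or mice. Between 52.2% and 55.6% of spots were well above background and no spot was saturated. To compare probes of the same gene, each was centred on its own mean over the 4 arrays. The median departure of these centred probes from their gene's mean was 0.16 on the wild-type 0 h array. On the other 3 arrays it was 0.07 to 0.09. The wild-type 0 h array enters the wild-type LPS response and the 0 h genotype difference. St18, the targeted gene, was at -1.31 and -1.66 in wild-type cells at 0 h and 3 h and was not well above background in LysM-St18flox cells, a reduction of at least 7.07-fold at 0 h and of at least 8.48-fold at 3 h. Where its probe lies relative to the floxed part is not given in the labels. All 10 macrophage markers were well above background on all 4 arrays, with a summed signal between 749 and 837 times the 75th percentile.

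Several of the most strongly responding members carry the response element motif in their promoters. The motif searched was GAAANNGAAA, the core of the interferon-stimulated response element, on both strands and with overlapping matches counted, in windows from 250 bases before to 50 bases after each RefSeq transcription start (assembly GRCm38.p6). The 250 bases before the start of Ifit1 (chr19:34640639-34640888, plus strand) and of Isg15 (chr4:156200819-156201068, minus strand) are shown first, as genes picked by name. They had the largest and the fifth largest measured LPS responses in wild-type cells and more than 1 match each. Ifit3 also had 2 matches and a larger response than Isg15. Each line runs 5′ to 3′ on the gene's strand, with matches in capitals.
Ifit1: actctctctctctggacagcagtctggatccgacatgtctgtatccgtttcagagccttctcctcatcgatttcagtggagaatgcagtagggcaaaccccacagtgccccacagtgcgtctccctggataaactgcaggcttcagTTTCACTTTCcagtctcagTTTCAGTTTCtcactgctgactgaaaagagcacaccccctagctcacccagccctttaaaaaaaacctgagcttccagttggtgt
Isg15: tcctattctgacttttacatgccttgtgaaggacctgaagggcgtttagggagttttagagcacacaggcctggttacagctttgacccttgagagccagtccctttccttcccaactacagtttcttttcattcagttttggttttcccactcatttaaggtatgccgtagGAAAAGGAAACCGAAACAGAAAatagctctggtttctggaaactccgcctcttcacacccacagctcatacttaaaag
The Ifit1 window held 2 matches on the opposite strand, at -104 and -85 bases from the start. The Isg15 window held 3 matches on its own strand that overlap one another, between -78 and -66 bases from the start.

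Shorter stretches around the matches are shown for 6 further members, 3 with a single match and 3 with a pair, with 8 flanking bases on each side. They lie at chr19:34583365-34583424 on the plus strand (Ifit3), chr12:26456555-26456580 on the minus strand (Rsad2), chr8:61928026-61928085 on the plus strand (Ddx60), chr11:83020841-83020866 on the minus strand (Slfn8), chr11:82991858-82991883 on the minus strand (Slfn9) and chr8:71537579-71537610 on the minus strand (Bst2).
Ifit3: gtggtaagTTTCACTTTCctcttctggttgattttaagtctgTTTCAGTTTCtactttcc
Rsad2: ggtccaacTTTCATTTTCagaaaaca
Ddx60: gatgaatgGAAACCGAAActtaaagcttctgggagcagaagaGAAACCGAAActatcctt
Slfn8: ttgagcagTTTCGTTTTCcccaaaag
Slfn9: ccgagcagTTTCGTTTTCccaaaaac
Bst2: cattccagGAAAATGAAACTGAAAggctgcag
The neighbouring Schlafen genes Slfn8 and Slfn9 carried the same 10 letters in capitals, at -48 and -45 bases from their starts. In Bst2 the 2 matches overlap. The 6 stretches do not follow the size of the response. Bst2 differed by 1.15 in wild-type cells, while Trim21, with a response of 3.80 and 2 matches, is not shown.

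A window was found for 42 of the 48 members, and none for Usp18, Rtp4, Ifi204, Parp9, Parp10 and Parp14. A match was present in 16 of the 42 (38.1%), against 1079 of 27025 genes with a window (3.99%). Among members with a measured wild-type LPS response, the motif was present in 5 of 9 with a response of log2 4 or more, in 7 of 17 between 2 and 4, and in 2 of 12 below 2. Ifit2 and Cmpk2 had no match in the window although their signals were among those that rose most, and Ifitm3 had 2 matches, 2 and 19 bases after the start, with a wild-type response of -0.10. A match describes letters in the window and is not a bound site.

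**Figure D1:**
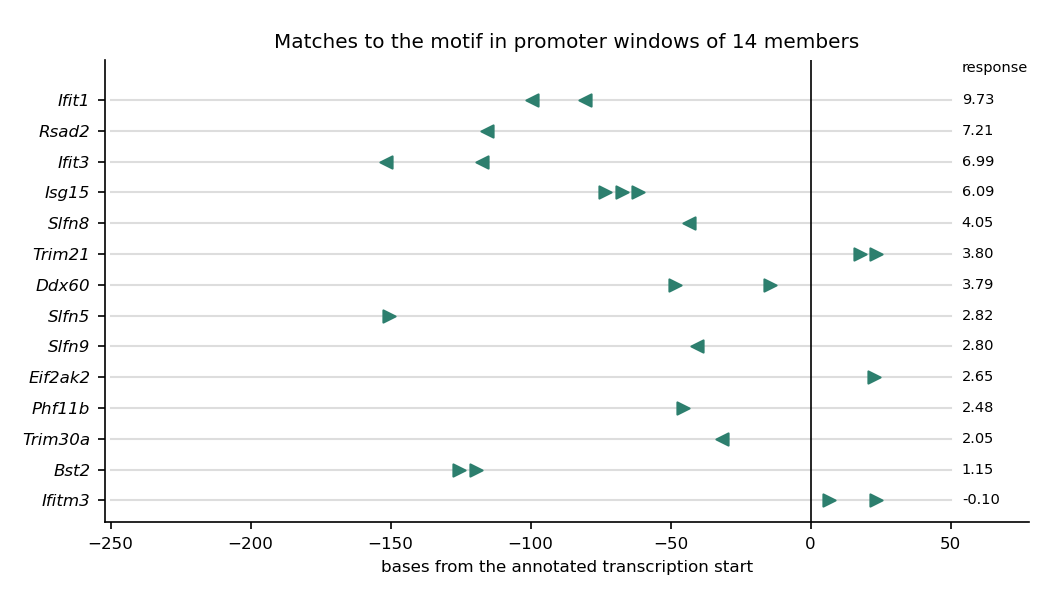
Position of each motif match, in bases from the annotated transcription start, in the 14 members with both a match and a matched probe. Triangles pointing right are matches on the gene's own strand and triangles pointing left on the opposite strand; the wild-type LPS response (log2) is at the right. For Slfn8 and Trim30a, which have windows at 2 starts, 1 is drawn. The matches drawn lie before the start in 11 genes and after it in Trim21, Eif2ak2 and Ifitm3.

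The signal of most of these genes was far higher after LPS in both genotypes. In wild-type cells the signal at 3 h was 2-fold or more above that at 0 h for 39 of the 44 members measured at both times, where 9.04% of all 12586 measured genes were. None was 2-fold lower, where 11.6% of all genes were. The median log2 difference of the measured members was 2.74, against -0.11 over all genes. In LysM-St18flox cells 40 of 45 members rose by 2-fold or more (8.12% of all genes) and none was lower (8.97%), with a median of 3.10 against -0.09.

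The same 39 members were at least 2-fold higher in both genotypes, 32 were at least 4-fold higher in both, and 11 at least 16-fold. Over all measured genes, LPS responses of 4-fold or more upwards made up 3.28% for wild-type and 3.01% for LysM-St18flox cells. All-gene shares for both genotypes together, or at 16-fold, are not given here. Ifit2 and Ifi44, not well above background before LPS on 1 and on both 0 h arrays, were higher by the bounds given with their values. For such genes a fold is a lower bound, taken against the lowest signal well above background on the unstimulated array, or the gene's own signal where that is higher. In both genotypes Samhd1, Lgals3bp, Ifitm1, Ifitm3 and Ifitm6 moved by less than 2-fold, by their brightest probes.

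**Figure D2:**
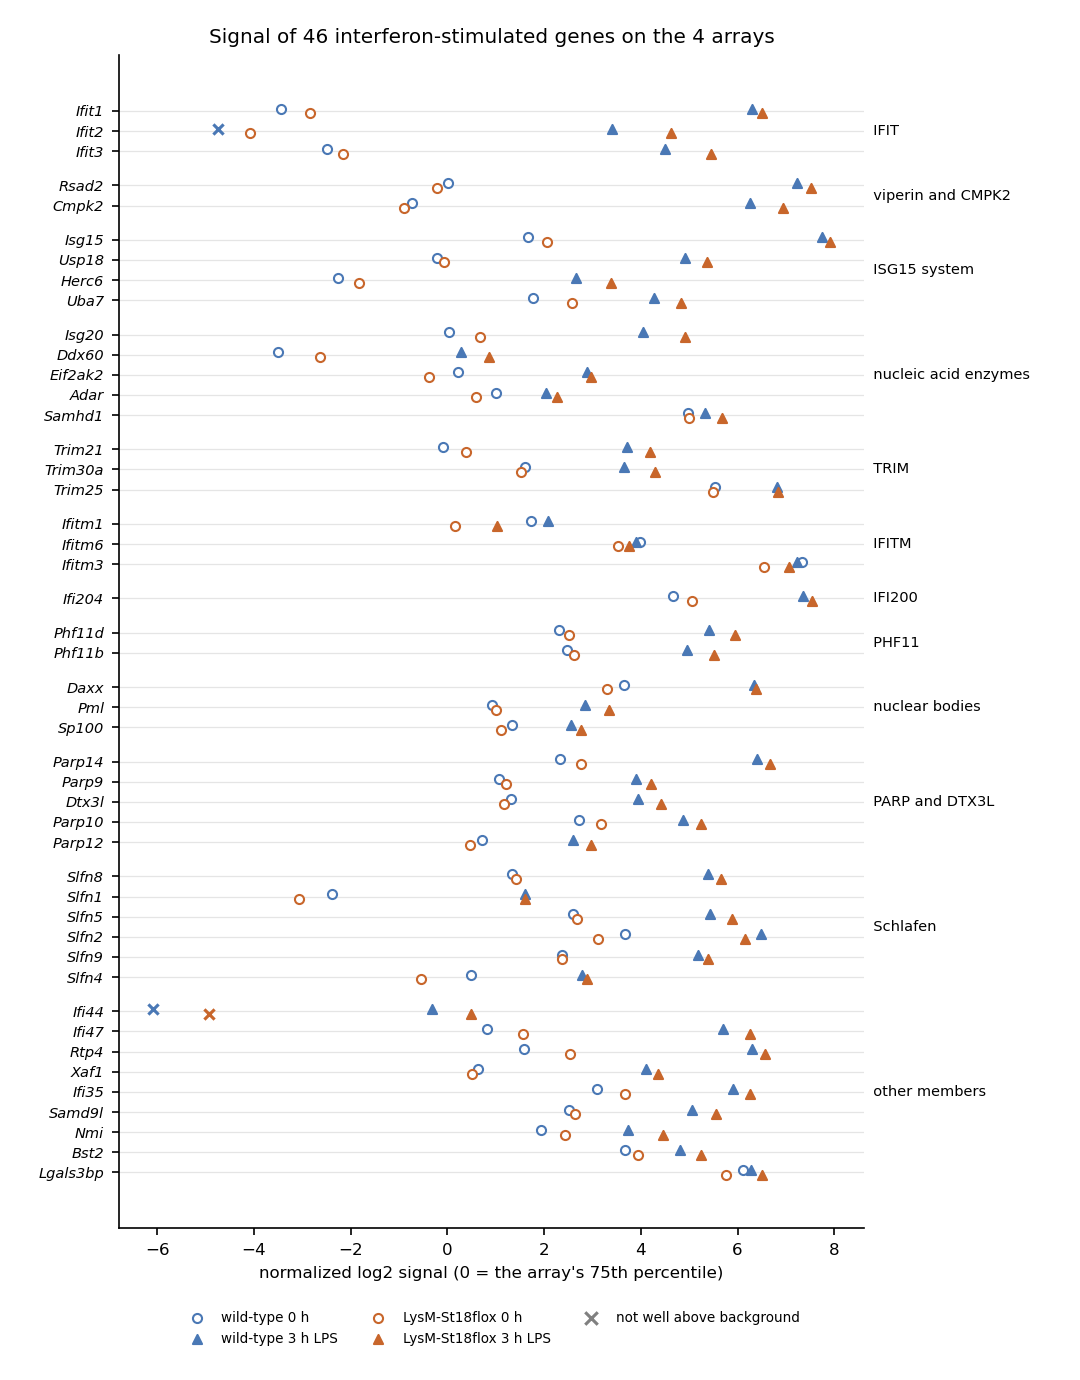
Normalized log2 signal (x axis) of the 46 matched members on each of the 4 arrays, grouped by family. Open circles are 0 h and filled triangles 3 h of LPS, blue for wild-type and orange for LysM-St18flox cells, and crosses mark signals not well above background. The 3 h symbols lie to the right of the 0 h symbols for nearly every gene, by most in the IFIT family, Rsad2 and Cmpk2, and lie close to them in the IFITM family.

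The IFIT proteins, which bind foreign RNA and limit its translation, had the largest family medians, 8.36 over 2 measured genes and 8.71 over 3. Ifit1 went from -3.44 to 6.30 in wild-type and from -2.85 to 6.51 in LysM-St18flox cells, which is 849.9-fold and 657-fold. Ifit3 went from -2.50 to 4.49 and from -2.15 to 5.46, 127-fold and 195-fold. Ifit2 was at -4.74, not well above background, and 3.41 in wild-type cells, at least 188-fold higher. On the LysM-St18flox arrays it went from -4.08 to 4.63, which is 419.5-fold. All 3 genes lay below the 75th percentile of the array before LPS and above it afterwards.

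Rsad2 encodes viperin, which makes a chain-terminating nucleotide, and its neighbour Cmpk2 encodes a nucleotide kinase that supplies viperin's substrate. Rsad2 was at 0.02 and 7.23 in wild-type cells and at -0.21 and 7.51 in LysM-St18flox cells, 148-fold and 211-fold higher. Cmpk2 was at -0.73 and 6.25, then -0.90 and 6.94, 127-fold and 229-fold higher. For both genes the 3 h signals lay far above both 0 h signals.

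The ubiquitin-like modifier ISG15 is activated by the E1 enzyme UBA7, joined to targets by HERC ligases such as HERC6 in the mouse, and removed by USP18, which also dampens interferon receptor signalling. Isg15 was at 1.67 and 7.75 in wild-type cells and at 2.06 and 7.91 in LysM-St18flox cells, 68.0-fold and 57.9-fold higher. Usp18 was at -0.21 and 4.92, then -0.08 and 5.36, 35.0-fold and 43.3-fold higher. Herc6, at -2.26 and 2.66, then -1.83 and 3.39, rose 30.4-fold and 37.2-fold. The activating enzyme gene Uba7 moved least of the 4, from 1.78 to 4.27 and from 2.59 to 4.82, 5.63-fold and 4.71-fold.

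Among enzymes acting on nucleic acids, the exonuclease gene Isg20 and the helicase gene Ddx60 responded most by their brightest probes. Isg20 was at 0.03 and 4.05, then 0.67 and 4.92, 16.2-fold and 19.1-fold higher. Ddx60 was at -3.51 and 0.28, then -2.64 and 0.85, 13.9-fold and 11.2-fold higher. Eif2ak2, which encodes the RNA-activated kinase PKR, rose by 2.65 in wild-type and 3.33 in LysM-St18flox cells on the log2 scale. A second Ddx60 probe gave 2.31 and 2.68, below Eif2ak2 in both genotypes, and a second Isg20 probe gave 2.94 and 4.21, above it in both. Adar, the RNA adenosine deaminase, differed by 1.03 and 1.68, and its wild-type difference fell under 2-fold in another processing. Samhd1, which hydrolyses the nucleotides needed for reverse transcription, was at 4.97 and 5.33, then 4.996 and 5.68, within 2-fold in both genotypes. That call depends on the probe, since the other 2 Samhd1 probes gave 0.29 and 1.02 in wild-type and 1.11 each in LysM-St18flox cells.

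The TRIM genes encode ubiquitin ligases: TRIM21 is a cytosolic antibody receptor and TRIM25 a ligase that acts on RIG-I. Trim21 was at -0.08 and 3.71, then 0.38 and 4.19, with differences of 3.80 and 3.81. Trim30a was at 1.60 and 3.65, then 1.52 and 4.30, and Trim25 at 5.53 and 6.82, then 5.49 and 6.83. The 3 h arrays lay above the 0 h arrays for all 3 genes, by 1.29 and 1.34 in the case of Trim25.

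The IFITM genes, whose membrane proteins block virus entry at endosomes, moved little. None of the 3 measured members was 2-fold higher after LPS in either genotype, and the medians were -0.07 in wild-type and 0.50 in LysM-St18flox cells. In another processing Ifitm1 passed 2-fold in LysM-St18flox cells. Ifitm3 was at 7.33 and 7.23 in wild-type and at 6.55 and 7.06 in LysM-St18flox cells. Ifitm6 was at 3.98 and 3.91, then 3.53 and 3.76, and Ifitm1 at 1.73 and 2.09, then 0.16 and 1.02. For Ifitm3 the 4 signals spanned less than 1 on the log2 scale, and its 0 h signal was already far above the 75th percentile of its array.

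Ifi204, the measured member of the IFI200 family of DNA-binding proteins, was at 4.67 and 7.35, then 5.05 and 7.54, 6.41-fold and 5.61-fold higher. Phf11b was at 2.48 and 4.95, then 2.61 and 5.51, and Phf11d at 2.30 and 5.40, then 2.51 and 5.95. These neighbouring genes had median responses of 2.79 and 3.17 in the 2 genotypes. Genes of the PML nuclear body, a structure that restricts incoming viral genomes, had medians of 1.92 and 2.33. Daxx was at 3.65 and 6.34, then 3.29 and 6.39, Pml at 0.92 and 2.84, then 1.01 and 3.34, and Sp100 at 1.33 and 2.56, then 1.11 and 2.76. Sp100 moved least of these in both genotypes, by 1.23 and 1.65.

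PARP9, PARP10, PARP12 and PARP14 belong to the ADP-ribosyltransferase family, and DTX3L is a ubiquitin ligase that partners PARP9. All 5 genes were at least 2-fold higher in both genotypes, with medians of 2.63 and 3.00. Parp14 was at 2.33 and 6.39, then 2.76 and 6.67, 16.7-fold and 15.04-fold higher. Parp9 was at 1.07 and 3.89, then 1.21 and 4.22, and Dtx3l at 1.31 and 3.94, then 1.18 and 4.42. Parp12 moved least in wild-type cells, from 0.71 to 2.59, and went from 0.46 to 2.97 in LysM-St18flox cells. The least response in LysM-St18flox cells was that of Parp10, 2.08, against 2.15 in wild-type cells.

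The products of the 6 Schlafen genes include restrictors of growth and of viral translation. By their brightest probes all 6 genes were at least 4-fold higher in both genotypes, with medians of 2.81 and 3.32. Slfn8 was at 1.34 and 5.39, then 1.43 and 5.66, 16.6-fold and 18.8-fold higher. Slfn1 was at -2.38 and 1.60, then -3.07 and 1.60, 15.8-fold and 25.5-fold higher. Slfn4 was at 0.49 and 2.77 in wild-type cells and at -0.56 and 2.90 in LysM-St18flox cells, 4.88-fold and 10.9-fold higher. Slfn2 went from 3.67 to 6.48 and from 3.12 to 6.14. Slfn5 and Slfn9 had responses between 2.80 and 3.19 by their brightest probes. A second Slfn9 probe gave 1.09 and 0.14, while the other probes of Slfn5 and Slfn8 gave 2.88 or more. Members of this family resemble one another in sequence, and whether probes detect more than 1 of them was not tested.

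Among the members outside these families, Ifi44 was at -6.09 and -4.92 at 0 h, not well above background, and at -0.32 and 0.49 at 3 h, at least 14.2-fold and at least 24.7-fold higher. Ifi47, an interferon-inducible GTPase gene, was at 0.81 and 5.71, then 1.56 and 6.27, 29.8-fold and 26.1-fold higher. Rtp4, which encodes a receptor transport protein, was at 1.58 and 6.29, then 2.54 and 6.56, 26.1-fold and 16.2-fold higher. Of the others, Xaf1, which encodes a partner of the inhibitor of apoptosis XIAP, had differences of 3.47 and 3.86. Ifi35 and Nmi, whose proteins bind each other, had differences of 2.80 and 2.57 and of 1.81 and 2.03. Samd9l, a translation inhibitor gene, differed by 2.54 and 2.93. Bst2 encodes tetherin, which holds budding virions at the cell surface, and differed by 1.15 and 1.30, under 2-fold in another processing. Lgals3bp, a secreted galectin ligand, was at 6.12 and 6.28, then 5.76 and 6.51.

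The genes of the interferon pathway show where this response stood at 3 h. Ifnb1 was not well above background at 0 h, at -6.06 and -6.48, and was at 1.82 and 2.52 at 3 h, at least 62.2-fold and at least 101-fold higher. Among interferon transcription factor genes, Stat2 rose by 2.81 and 3.02, and Irf9 by 1.76 and 1.79. Irf7 rose by 3.05 and 2.89, and Irf1 by 3.89 and 3.81. Irf8, a factor of myeloid development, was at 4.83 and 3.23 in wild-type and at 4.36 and 4.41 in LysM-St18flox cells, so that it fell by 1.60 on the log2 scale in the first and differed by 0.05 in the second. The contrast between the genotypes was not tested.

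Of the 4 inhibitors of interferon signalling, 2 rose past 2-fold in wild-type and 3 in LysM-St18flox cells. Socs1 rose by 5.79 and 6.37, and Socs3 by 6.29 and 5.85. Of the 3 Janus kinases, Jak2 rose most, by 3.84 and 3.63. Among the 4 receptor genes Ifnar2 differed by 1.02 and 0.66 and Ifnar1 by -0.66 and -0.02. In the arm from Toll-like receptor 4 to interferon, 3 of 8 genes were at least 2-fold higher in each genotype, with the wild-type maximum at the kinase gene Ikbke, 1.54. Ticam2, which encodes the adaptor between that receptor and TRIF, differed by -0.48 and -1.07.

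Other LPS-responsive groups frame these values. Of the OAS and RNase L genes, 6 of 9 rose by 2-fold or more in wild-type cells and 2 fell, with a median of 2.48. Of the interferon-inducible GTPases, 8 of 10 were higher with a median of 4.19. All 13 measured inflammatory genes induced by LPS were higher, with a median of 5.87. The 2 measured IFIT genes and the pair Rsad2 and Cmpk2 had medians above that, at 8.36 and 7.10. Another 2 inflammatory genes, past 2-fold by their bounds, are not in the median of 5.87. With no background filter the inflammatory median was 7.03.

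The size of a gene's response was similar in both genotypes. Across the 44 members measured on all arrays, the responses in wild-type and in LysM-St18flox cells had Pearson's r = 0.98 and Spearman's rho = 0.96, as a description of genes that share arrays, without a test. Over all 12343 genes measured on all arrays the values were 0.86 and 0.76. The response was larger in LysM-St18flox cells for 34 of the 44 members (52.8% of all genes), with a median excess of 0.31 against 0.03. It was smaller for Ifit1, Isg15, Ifi35, Ifi47, Rtp4, Ifi204, Uba7, Ddx60, Parp10 and Parp14.

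At the 2-fold level 1 member, Slfn4, had the larger response in LysM-St18flox cells (2.9% of all genes), and none had the smaller (2.41%). The excess for Slfn4 was 1.17, a ratio of 2.24 between the 2 responses. Its signals at 3 h were close, 2.77 and 2.90, and its signals at 0 h were 0.49 and -0.56. The largest excess in wild-type cells was that of Rtp4, -0.68, which also had close signals at 3 h and separate ones at 0 h. For both genes the genotypes lay apart at 0 h. With normexp background correction no member reached a 2-fold difference between responses.

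**Figure D3:**
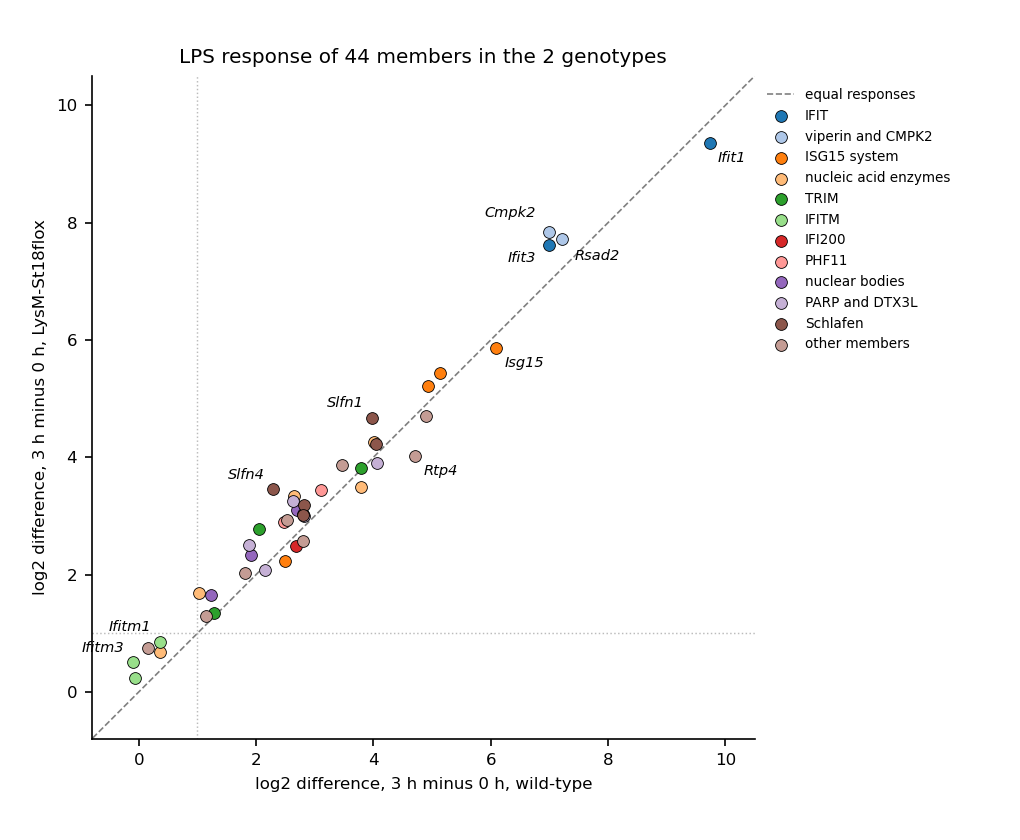
LPS response (log2 difference, 3 h minus 0 h) of 44 members in wild-type (x axis) and LysM-St18flox cells (y axis), 1 point a gene, coloured by family. The dashed line marks equal responses and the dotted lines a 2-fold change. Most points, 34 of 44, lie above the dashed line, and the 3 IFITM genes lie at the lower left.

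Between genotypes the signals of most members lay within 2-fold of each other. At 0 h none of 44 members exceeded its wild-type signal by 2-fold (3.04% of all genes) and 2 were at least 2-fold lower (3.03%), with log2 differences of -1.57 for Ifitm1 and -1.04 for Slfn4. Slfn4, unlike Ifitm1, passed to within 2-fold in another processing. At 3 h 1 of 46 was higher (1.82% of all genes), Ifit2 at 2.33-fold, and 1 was lower (1.4%), Ifitm1 at 2.09-fold. These shares are close to those of all genes.

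After LPS the small differences pointed mostly one way. At 3 h the signal was higher in LysM-St18flox than in wild-type cells for 41 of 46 members, where 47.5% of all genes were higher, and the median difference was 0.35 against -0.01. The 5 members at or below the wild-type signal were the 3 IFITM genes, Slfn1 and Slfn2. Across 7 other ways of processing that kept the 2-fold level, between 39 and 42 members were higher at 3 h. Every family other than IFITM had a median above 0 at 3 h in each of these ways of processing, from 0.17 for the Schlafen genes to 0.97 for the IFIT genes with the 75th percentile scaling, and the IFITM median was below 0 in each. The interferon-inducible GTPases were higher in 14 of 14 genes with a median of 0.70, the OAS and RNase L genes in 7 of 9 with 0.22, and the inflammatory genes in 9 of 15 with 0.02.

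The members that were highest relative to wild-type at 3 h were Ifit2 by 1.22, Ifit3 by 0.97, Isg20 by 0.87, Ifi44 by 0.81, Herc6 by 0.73 and Nmi by 0.72. Ifit3 fell on either side of 2-fold depending on the processing. A second Isg20 probe gave 1.02 at 3 h. Of the interferon genes, Ifnb1 was higher by 0.70 at 3 h. Ifng, chosen after its values were seen, was at -3.48 and -1.40 at 3 h, a difference of 2.08, and was not well above background on either 0 h array. Stat2 and Irf9 were higher by 0.15 and 0.27.

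At 0 h the members split more evenly. The signal was higher in LysM-St18flox cells for 26 of 44 members, where 46.9% of all genes were higher, with a median of 0.09 against -0.03. With each array set to its median in place of the 75th percentile, the count was 19 of 44 and the medians were -0.05 and -0.17, so the sign of the 0 h median depends on the scaling. The median of the members minus that of all genes ranged from 0.117 to 0.181 over every processing that kept the 2-fold level. Highest relative to wild-type at 0 h were Rtp4 by 0.95, Ddx60 by 0.87, Uba7 by 0.81, Ifi47 by 0.75, Isg20 by 0.64, and Ifi35 and Ifit1 by 0.58 each. The second Isg20 probe gave -0.25 at 0 h, opposite in sign. Below wild-type were, after Ifitm1 and Slfn4, Ifitm3 by -0.77, Slfn1 by -0.70, Eif2ak2 by -0.59 and Slfn2 by -0.56.

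The genotype differences at the 2 times can be set side by side. Across 44 members the genotype differences at 0 h and 3 h, which share no array, had r = 0.70 and rho = 0.61, against 0.42 and 0.37 over all genes. A total of 31 members had the same sign at both times, 26 above 0 and 5 below. Over all genes 7793 of 12343 had the same sign at both times. The other 13 members were below 0 at 0 h and above 0 at 3 h by their brightest probes, among them Rsad2, Cmpk2, Eif2ak2, Adar, Daxx and Slfn4. At 0 h another probe put Rsad2 at 1.02, Adar at 0.04 and Daxx at 0.68. A further Daxx probe gave -0.54 and a second Trim25 probe -0.76. The 0 h sign of Rsad2, Trim25 and Trim30a also changed under at least 1 other processing. The 5 genes below 0 at both times were Ifitm1, Ifitm3, Ifitm6, Slfn1 and Slfn2, of which Slfn1 was at 1.60 on both 3 h arrays.

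**Figure D4:**
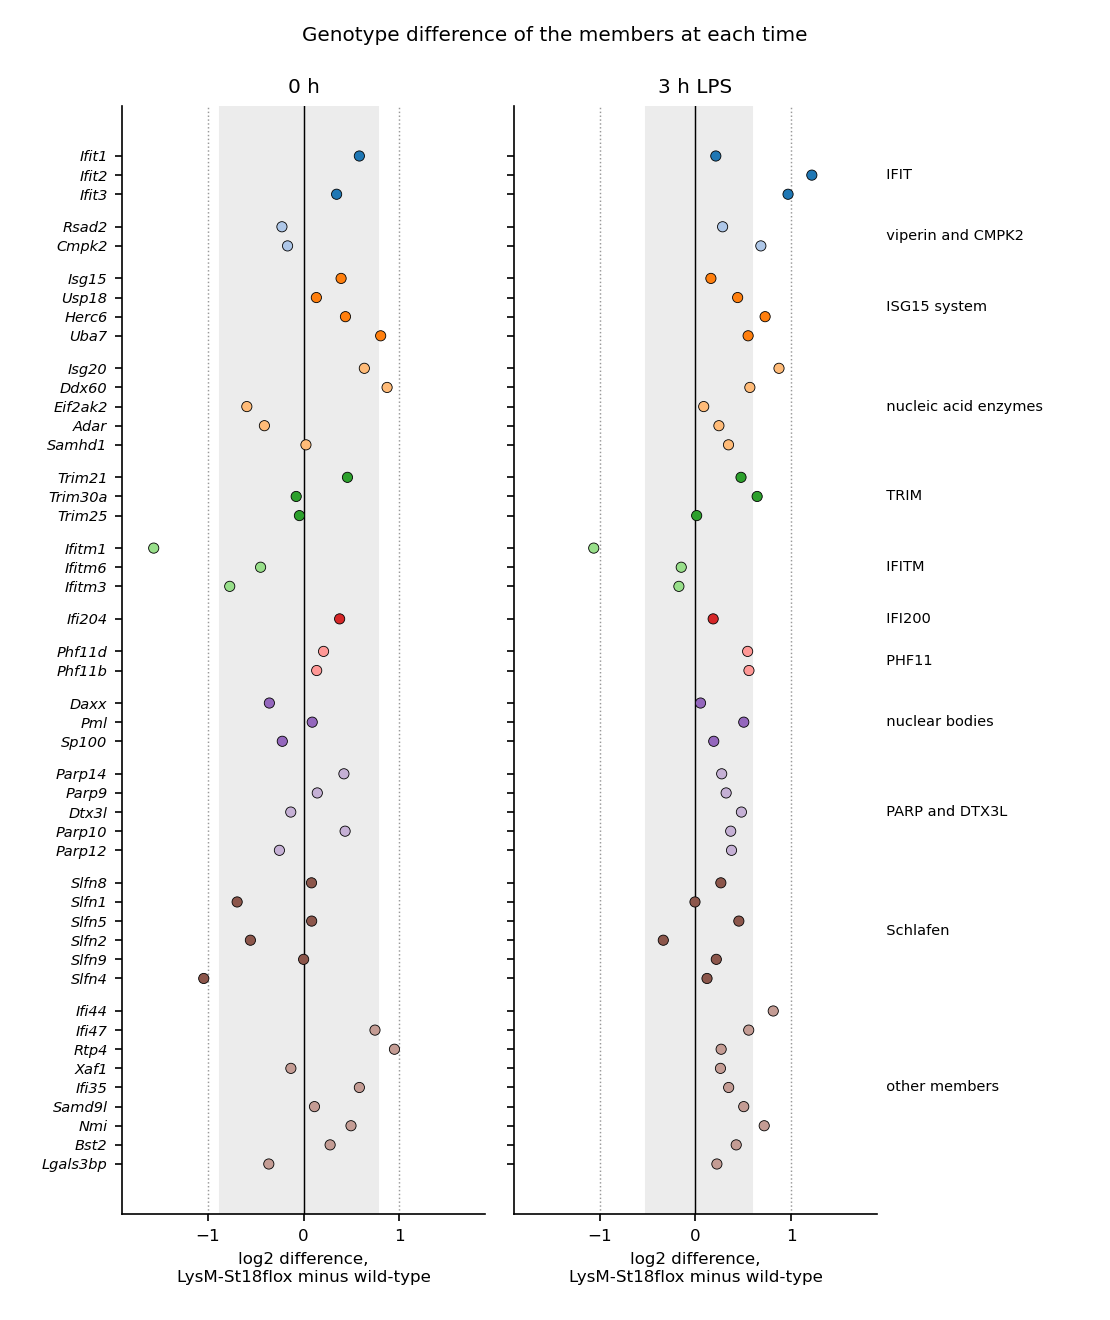
Genotype difference (log2, LysM-St18flox minus wild-type) of each measured member at 0 h and at 3 h of LPS, grouped and coloured by family. The grey band spans the 5th to the 95th percentile of all measured genes and the dotted lines mark 2-fold. At 3 h 41 of 46 points lie to the right of 0, with the IFITM genes to the left at both times.

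Markers of several other cells in the lavage differed between genotypes. The summed signal of the 9 matched neutrophil markers was 78.1 and 32.7 in wild-type and LysM-St18flox cells at 0 h, and 111 and 37.3 at 3 h, with Ngp not well above background on any array. Of the 8 measured, S100a8, S100a9 and Lcn2 were at least 2-fold lower at each time. The others did not follow: 4 of 8 lay above 0 at 0 h and 2 of 8 at 3 h, Retnlg was higher by 0.81 and 1.11, and the medians were -0.11 and -0.42. Of the B cell markers, 6 of 8 at 0 h and 5 of 8 at 3 h were at least 2-fold higher, with sums of 6.42 and 25.1, then 4.80 and 20.0, and with Cd79a and Blk not well above background in wild-type cells. The T and NK cell sums were 6.01 and 8.88, then 5.58 and 10.7, with Cd8a and Ncr1 nowhere well above background. Of the measured markers of that list, 4 of 6 at 0 h and 5 of 8 at 3 h were at least 2-fold higher. Cd4, at log2 1.59 and 0.55 at 0 h, had the highest wild-type signal of the list and was at least 2-fold lower at that time. The plasmacytoid dendritic cell sums were 121 and 117, then 155 and 152, with Runx2 nowhere well above background. Siglech alone, at log2 6.71 and 6.69 at 0 h, made up most of these sums. At 0 h 2 of the 5 measured markers of that list were higher, with differences from -0.95 to 1.72. Markers of mesothelial cells and fibroblasts were lower, with sums of 11.01 and 5.15, then 11.99 and 4.09. The globin genes Hba-a1, Hba-a2 and Hbb-bt, the erythroid markers measured at both times, were higher by 2.78 to 3.75 at 0 h and by 3.25 to 3.84 at 3 h. Of the 10 large peritoneal macrophage markers, 9 were higher at 0 h with a median of 0.79 and 4 past 2-fold, and 10 at 3 h with a median of 0.69 and 3 past 2-fold. Their sums were 91.0 and 96.3, then 92.1 and 105. Cd9, at log2 6.23 and 6.06 at 0 h, made up most of these sums and was the marker not higher at 0 h. The conventional dendritic cell sums were 17.4 and 28.2, then 18.6 and 30.2. The sums were 2.32 and 7.22, then 1.95 and 6.94 for mast cells, and 4.08 and 8.50, then 4.18 and 7.60 for eosinophils.

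Several of these marker lists differed between genotypes, and the plasmacytoid dendritic cell sums hardly did. The members' genotype differences stayed mostly within 2-fold, and the part of the markers' cells in those differences was not tested. In RNA from a whole lavage, fewer cells of a type and less RNA per cell cannot be told apart. The macrophage sums were 837 and 761 at 0 h and 784 and 749 at 3 h.

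Other probes of the same genes give a second reading. Of 12 members with a second measured probe, 11 stayed on the same side of 2-fold in the wild-type LPS response and 10 in the LysM-St18flox response. The median gaps between probes in these responses were 0.78 and 0.47. A second Rsad2 probe gave responses of 8.38 and 8.17. The largest gap was that of Slfn9, where the second probe gave 1.09 and 0.14 in place of 2.80 and 3.02. For the genotype difference at 3 h, 12 of 14 members stayed on the same side and 3 had a probe of opposite sign, among them Slfn5 with another probe at -1.17. At 0 h 6 of 12 members had a probe of opposite sign and the median gap was 0.64, against 0.16 at 3 h. A second Rsad2 probe gave 1.02 at 0 h, where the brightest gave -0.23. Ifit1, Ifit2, Ifit3, Ifitm1 and Slfn4 had 1 probe each.

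**Figure D5:**
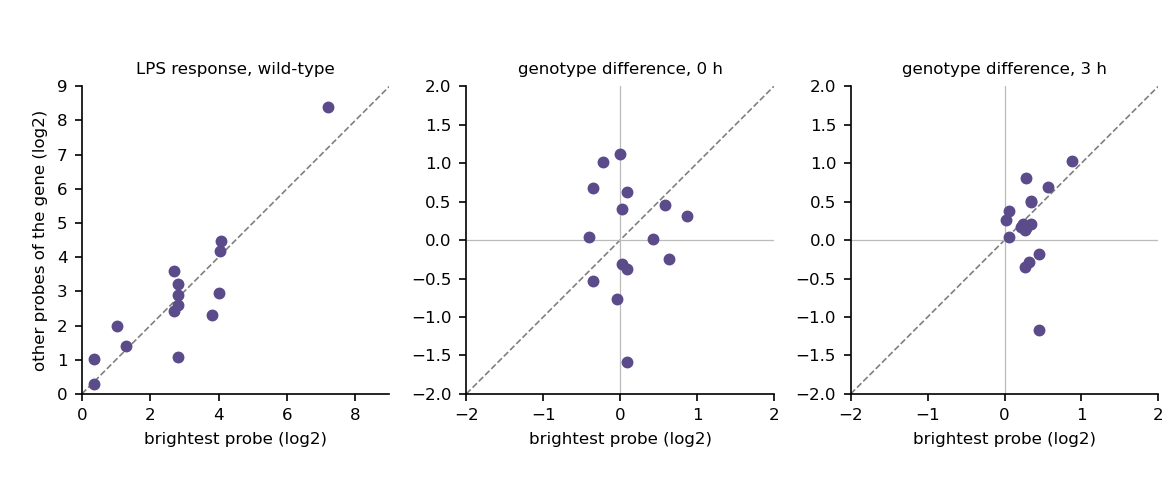
Log2 difference given by the other measured probes of a member (y axis) against its brightest probe (x axis), for the wild-type LPS response and for the genotype difference at 0 h and 3 h, 1 point a probe. The dashed line marks equal values. The median gap was 0.78 for the LPS response, 0.64 at 0 h and 0.16 at 3 h. The LPS panel has wider axes than the others.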

How the data were processed

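Expression was measured in 4 groups with 1 Agilent array each. The deposited intensity of a spot comes from Agilent Feature Extraction, version 11.0.1.1 in the submitters' processing notes, and per the file headers it is background-subtracted and spatially detrended, with no normalization between arrays. The deposited value table holds log2 values of 25482 probes. Its columns share a median of 9.58 and 1 distribution, each correlated with its own array at 0.99994 or more, and the labels and headers do not say how it was normalized or centred.

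From the intensities, spots of a probe were averaged on the log2 scale after control and outlier spots were left out, and the array's 75th percentile was subtracted. Names came from matching RefSeq accessions to the GRCm38.p6 gene table, which named 32994 of 35886 RefSeq probes. A gene took its brightest probe over the 4 arrays and counted as measured when that probe was well above background on every array compared. Where it was not on 1 side, a bound was taken against the lowest signal well above background. With 1 array a group there was no test, and changes were counted at 2-fold beside the same count over all genes. The calculation was tested on simulated data.

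The members, families, pathway genes and markers were chosen with earlier results of these data known. Every member was described, with signals per array for the 2 largest and the smallest LPS response of each family and for the 6 largest genotype differences each way at each time. Of the pathway, Ifnb1, Stat2, Irf9, Irf7, Irf1 and Socs1 were always named, and otherwise the extreme of each role. Of the other gene groups only counts and medians are given. Some genes of the pathway and marker lists are not reported here.

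The alternatives were median scaling, quantile normalization, normexp background correction with an offset of 50, the mean of a gene's probes, no background filter, a stricter filter, the deposited value table, and fold levels of 1.5 and 4. limma 3.58.1 in R 4.3.3 was used for the background correction and quantile normalization, and Python 3.11.15 with pandas 2.3.3 and numpy 2.4.6 for the rest. No table of protein sequences was used.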

Additional observations from a re-analysis of the deposited data

Results flagged for a closer look

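The LPS response of a pair of IFITM genes had opposite signs in the 2 genotypes. For Ifitm3 the log2 difference was -0.10 in wild-type and 0.50 in LysM-St18flox cells, and for Ifitm6 it was -0.067 in wild-type and 0.23 in LysM-St18flox cells. Each rests on 1 array a group, all 4 values were within 2-fold, and the difference between genotypes was not tested. The response of Ifitm6 changed sign in both genotypes under at least 1 other processing. The wild-type 0 h array, on which centred probes departed most from their gene's mean, enters both wild-type values.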

How the results depend on the processing

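Under 9 alternatives, 67 of 81 recomputed counts of members past the fold level stayed within 1.5 times the first count, and 14 did not. The count of members higher in LysM-St18flox cells at 0 h, first 0, was 1 with quantile normalization, 1 with the deposited value table, 1 with no background filter and 5 at a 1.5-fold level. The count lower at 0 h, first 2, was 1 with normexp correction, 5 at 1.5-fold and 0 at 4-fold. At 3 h the count higher, first 1, was 0 with the stricter filter, 8 at 1.5-fold and 0 at 4-fold, and the count lower, first 1, was 0 at 4-fold. The count with LPS responses 2-fold apart between genotypes, first 1, was 0 with normexp correction, 12 at 1.5-fold and 0 at 4-fold. The fold levels move these counts by construction; for the other settings the cause was not tested. Members higher after LPS numbered 32 to 41 in wild-type and 36 to 43 in LysM-St18flox cells. The sign of the genotype difference held in all settings for 41 of 46 members at 3 h and 34 of 44 at 0 h. The 2-fold call changed for Adar and Bst2 (wild-type LPS response), Bst2 and Ifitm1 (LysM-St18flox response), Rtp4 and Slfn4 (0 h) and Ifit3 (3 h). Dim signal limits Ifit2 and Ifi44 at 0 h to bounds.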
